A study of Sus scrofa with 16 samples.

Results

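The stress-responsive genes ASNS, CTH, GADD45A and GADD45B were followed through a pair of skeletal muscles of the Iberian pig. These 4 genes were chosen by name for their behaviour between the muscles and by feeding level in these same arrays, so that their values for muscle and feeding are given as a description with no test. Every probe set (the group of short probes that reads 1 transcript) whose only gene symbol was 1 of these names was taken. This gave 5 of the 24123 probe sets on the array: Ssc.11609.1.A1_at for ASNS, Ssc.4989.1.A1_at for CTH, Ssc.20913.1.S1_at for GADD45A, and Ssc.14764.1.A1_at (its first probe set below) and Ssc.9380.1.S1_at (its second) for GADD45B. All 5 reached a log2 value of 4 on at least 4 of the 16 arrays and so entered the fits over 11467 probe sets.

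The muscles were the psoas major, which lies beside the lumbar spine and flexes the hip, and the diaphragm, which contracts with every breath. Both came from each of 8 Iberian pigs slaughtered at 211 days of age, and each animal gave 1 Affymetrix porcine array per muscle. Animals 5 to 8 were female and animals 1 to 4 male. Animals 2, 3, 5 and 8 were under 20% feed restriction, and animals 1, 4, 6 and 7 were on the high feeding level. All received the same pelleted feed until the restriction started, and the sources used here give neither its length nor whether the males were castrated. Each of the 8 combinations of muscle, sex and feeding level therefore held 2 arrays. Values are log2 expression values as deposited by the authors, so a difference of 1 is a doubling, and levels of different probe sets cannot be set against each other.

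ASNS makes asparagine from aspartate and glutamine. CTH, cystathionine gamma-lyase, makes cysteine from cystathionine in the last step of transsulfuration, and both are known targets of ATF4, the transcription factor whose translation goes up when amino acids are short and eIF2 is phosphorylated. GADD45A and GADD45B are small proteins that respond to DNA damage and other stress and bind cell cycle and kinase partners such as PCNA, CDKN1A and MAP3K4. In mouse muscle, GADD45A is known to go up after denervation and fasting and to act downstream of ATF4.

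The 16 arrays carried muscle RNA. The fibre genes CKM, TTN, NEB, TNNC2 and MYH7 lay between 14.05 and 15.24 on every array, and MYH2 between 11.79 and 15.43. Between 11025 and 11163 probe sets per array lay at or above 4. Of 8 tested fibre markers 2 were called higher in psoas, MYH2 by 2.74 ± 0.14 and MYOZ1 by 0.17 ± 0.06, and 0 lower. Markers of other cells differed between the muscles as well. Of the tested markers, 6 of 7 endothelial, 4 of 5 immune, 3 of 4 adipocyte and 7 of 7 hepatocyte ones were called lower in psoas. Of 7 fibroblast markers 4 were called lower and 1 (COL3A1) higher. Of 5 smooth muscle markers 1 (RGS5) was called lower and 1 (CNN1, by 2.08) higher. Of 2 Schwann cell and nerve markers 1 (MBP) was called lower, and of 2 erythrocyte markers 0 were called. The mean of the 7 hepatocyte markers lay between 3.13 and 3.78 in psoas, where 11 of the 13 on the array, ALB and FGB among them, stayed below 4 on every array, and between 3.64 and 7.93 in diaphragm. ALB, FGB, APOC3, HP and TF therefore passed the filter through diaphragm alone, which tilts them towards a call lower in psoas. The actin control probe sets for the 3' end exceeded those for the 5' end, which can be a sign of RNA breakdown, by 3.07 to 3.85 in psoas. In diaphragm this excess was 4.07 to 4.33 in animals 1, 2, 3 and 5, and 3.35 to 3.49 in animals 4, 6, 7 and 8. The GAPDH control probe sets showed no such excess: their 3' minus 5' difference lay between -0.23 and 0.08 on all 16 arrays.

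ASNS stood higher in psoas than in diaphragm in all 8 animals. In psoas its log2 values were 8.79, 9.28, 7.43 and 6.67 in males 1 to 4 and 8.70, 8.28, 7.10 and 7.68 in females 5 to 8. In diaphragm they were 6.70, 7.25, 5.05 and 4.82 in males 1 to 4 and 7.62, 6.86, 5.27 and 6.39 in females 5 to 8. Between animals ASNS varied widely, so the ranges of the muscles overlapped although no single animal went the other way. The difference was 1.75 ± 0.45 (SE from the fit over 16 arrays, limma with sex and feeding level as covariates), or 3.35-fold. That fit had no term for the animal, so this SE and those of the muscle differences below include spread between animals. Taken within each animal, the 8 ASNS differences had a mean of 1.75 and an SD of 0.44. These arrays hold whole tissue, in which fewer cells of a type and less RNA per cell cannot be told apart.

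GADD45A ran the other way. It measured 7.32, 6.93, 5.997 and 7.45 in psoas of males 1 to 4 and 6.21, 6.11, 5.53 and 5.70 in psoas of females 5 to 8. In diaphragm it measured 7.79, 8.01, 7.68 and 6.68 in males 1 to 4 and 7.14, 7.42, 7.32 and 7.08 in females 5 to 8. Psoas was lower in 7 of the 8 animals, and male 4, with the highest psoas and the lowest diaphragm value, was the exception at 0.77 higher in psoas. The difference was -0.99 ± 0.24, a level 1.98-fold lower in psoas, and leaving out animal 4 gave -1.24. The endothelial, immune and adipocyte markers above were lower in psoas as well, and their part in the GADD45A difference was not tested.

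GADD45B was higher in psoas on both of its probe sets. On the first, psoas values were 5.20, 5.22, 5.26 and 5.74 in males 1 to 4 and 5.30, 5.19, 5.47 and 6.22 in females 5 to 8, and diaphragm values were 5.15, 5.01, 4.74 and 5.20 in males and 4.81, 4.88, 5.15 and 5.21 in females. Psoas exceeded diaphragm in 8 of 8 animals, by 0.43 ± 0.14. The second probe set gave 3.96, 4.94, 5.02 and 5.36 in psoas of males 1 to 4 and 3.97, 3.84, 4.63 and 5.50 in psoas of females 5 to 8. Its diaphragm values were 3.68, 3.89, 3.96 and 4.13 in males and 3.87, 3.34, 3.96 and 3.56 in females, so that 7 of 8 diaphragm arrays lay under the floor of 4 and the probe set passed the filter through psoas. Again all 8 animals were higher in psoas, by 0.85 ± 0.23. Over the 16 arrays the probe sets correlated at 0.772, within psoas at 0.722 and within diaphragm at 0.0716, where 1 of them was at the floor.

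CTH differed less clearly between the muscles as a whole. Its psoas values were 3.74, 5.17, 5.91 and 5.47 in males 1 to 4 and 5.40, 5.62, 5.15 and 5.95 in females 5 to 8. Its diaphragm values were 3.82, 3.88, 4.81 and 5.41 in males 1 to 4 and 4.37, 5.82, 4.60 and 4.61 in females 5 to 8. Psoas was higher in 6 animals and lower in animals 1 and 6, with a difference of 0.64 ± 0.32. Animal 1 was below 4 in both muscles and animal 2 in diaphragm, where the values are compressed.

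Over all tested probe sets, 14.6% were called higher and 12.4% lower in psoas at an adjusted p under 0.05 (limma, Benjamini-Hochberg), and over the 4571 tested genes 17.3% were called higher and 12.2% lower. ASNS and both GADD45B probe sets were among those called higher and GADD45A among those called lower, while CTH was not called. Since the genes were chosen on this contrast, nothing is read from that count.

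**Figure D1:**
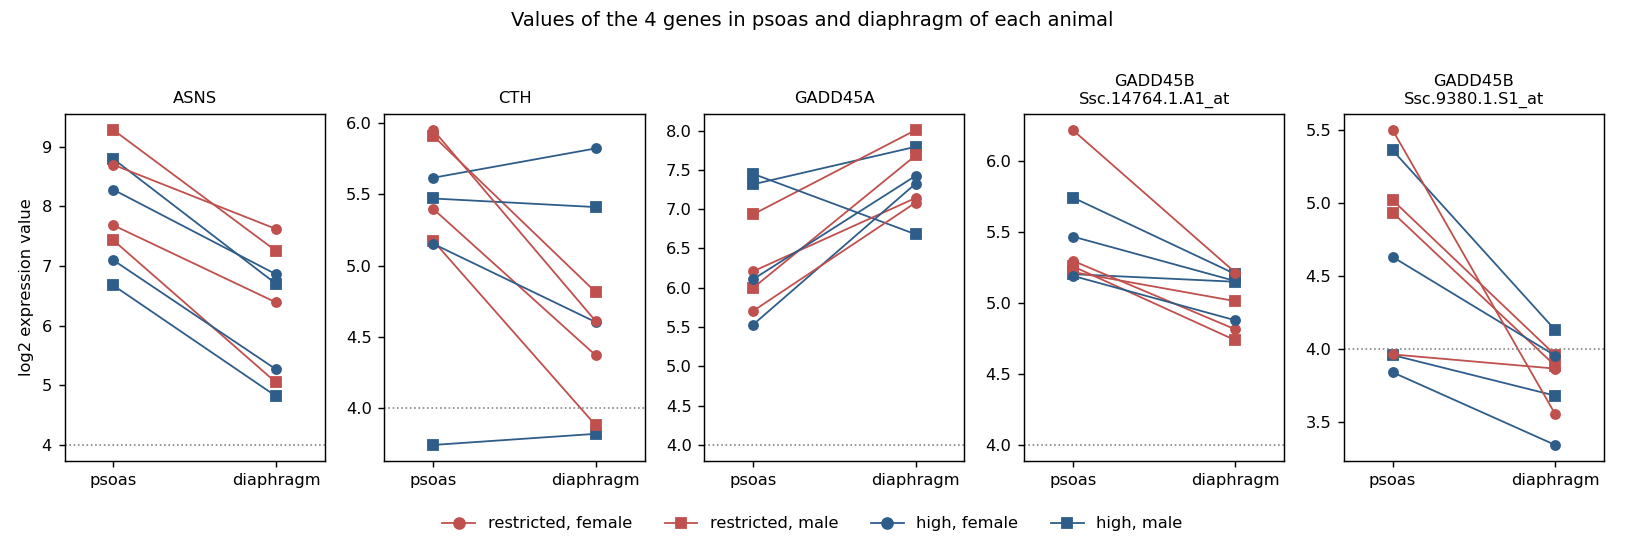
Log2 expression value of each probe set in psoas (left of each panel) and diaphragm (right), with 1 line per animal, coloured by feeding level and marked by sex; the dotted line is the floor of 4 used for testing. All 8 ASNS and GADD45B lines fall towards diaphragm, 7 of 8 GADD45A lines climb, and the CTH lines of the 4 restricted animals fall while those of 3 of the 4 animals on the high level are nearly flat.

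Feeding level entered the choice of these genes too, and the averages over an animal's muscles overlapped between the levels. ASNS animal means were 7.42 ± 0.97 under restriction and 6.81 ± 0.997 on the high level (SD, n = 4 animals each), a difference of 0.61 ± 0.60 (SE) that moved to between 0.23 (without animal 2) and 1.04 (without animal 3) when 1 animal was left out. CTH animal means were 5.01 ± 0.39 under restriction and 4.96 ± 0.86 on the high level. GADD45A means were 6.84 ± 0.46 under restriction and 6.95 ± 0.48 on the high level, and GADD45B means on the first probe set were 5.22 ± 0.33 and 5.25 ± 0.19 in the same order. The groups overlapped for each of the 4 genes. In these comparisons of feeding level limma called 0 of 11467 probe sets, or 0%, over animal means, within diaphragm and within psoas, with 1451, 1101 and 1291 probe sets at an unadjusted p under 0.05.

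CTH separated the feeding levels in the difference between an animal's muscles. Psoas exceeded diaphragm by 1.29, 1.096, 1.03 and 1.34 in the restricted animals 2, 3, 5 and 8. In the animals on the high level, numbers 1, 4, 6 and 7, the difference was -0.08, 0.06, -0.21 and 0.55. The groups did not overlap, at 1.19 ± 0.15 under restriction and 0.08 ± 0.33 on the high level (SD, n = 4 each), 1.11 ± 0.19 (SE) apart. How many of all tested probe sets separate the levels in this way was not counted. Animal 1 lay below 4 in both muscles (3.74 in psoas, 3.82 in diaphragm) and animal 2 in diaphragm (3.88), where values are compressed. Restricted minus high was 0.61 ± 0.39 within psoas and -0.50 ± 0.42 within diaphragm. Leaving out 1 animal at a time moved the psoas value to between 0.20 (without animal 1) and 0.89 (without animal 4). It moved the diaphragm value to between -0.86 (without animal 1) and -0.21 (without animal 6), and the actin excess as a covariate made the diaphragm value -0.15. The higher actin excess in diaphragm was in restricted animals 2, 3 and 5 and in high-level animal 1. The covariate and feeding level therefore cannot be fully told apart there. In the whole table limma called 0% of probe sets for a muscle difference that depended on feeding level, with 696 at an unadjusted p under 0.05. The CTH values count as used by the choice and are not tested here. CTH is abundant in liver, and no hepatocyte marker was called for feeding level. Their mean in diaphragm was 4.85, 3.64, 5.51 and 7.93 in the restricted animals 2, 3, 5 and 8, and 7.36, 7.39, 5.48 and 6.60 in animals 1, 4, 6 and 7 on the high level, so that the levels overlapped, with the restricted animal 8 the highest. For the muscle difference by feeding level all 7 tested hepatocyte markers were above 0, with a median of 1.36 against -0.01 over all tested genes, and 0 were called. Their part in the CTH pattern was not tested.

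For the other 3 genes the muscle difference overlapped between feeding levels. ASNS psoas minus diaphragm was 1.69 ± 0.61 under restriction and 1.80 ± 0.28 on the high level. GADD45A gave -1.27 ± 0.33 under restriction and -0.70 ± 1.12 on the high level, where male 4 widened the spread. GADD45B gave 0.55 ± 0.33 under restriction and 0.30 ± 0.20 on the high level on the first probe set, and 1.04 ± 0.76 and 0.67 ± 0.41 in the same order on the second (SD, n = 4 each).

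**Figure D2:**
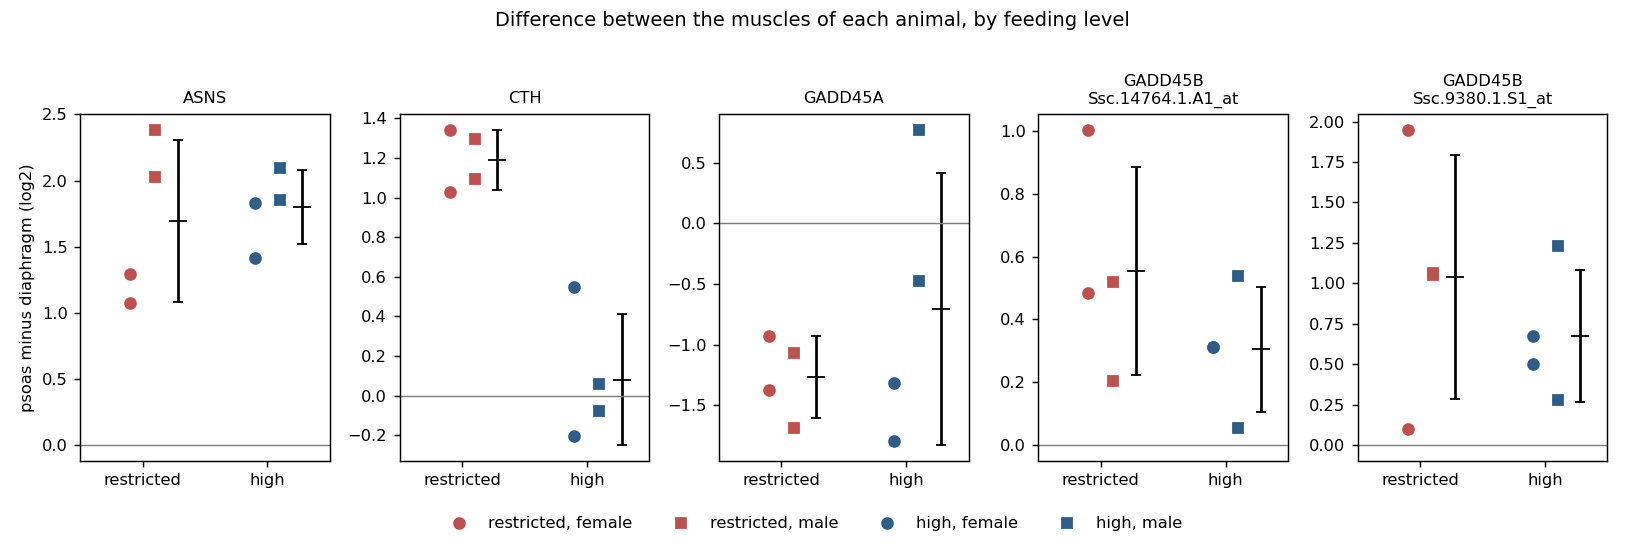
Psoas minus diaphragm (log2) of each animal, by feeding level, with the mean ± SD of the 4 animals as a black bar beside the points. The CTH points of the restricted animals, 1.03 to 1.34, lie above all points of the high level, -0.21 to 0.55, and the groups overlap in the other 4 panels; both high-level females coincide at 0.31 on the first GADD45B probe set.

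The order of the 4 conditions by mean level was not the same for each gene. ASNS ran from 8.27 ± 0.87 in restricted psoas through 7.71 ± 0.99 in psoas on the high level and 6.58 ± 1.14 in restricted diaphragm to 5.91 ± 1.02 in diaphragm on the high level (SD, n = 4 each). CTH ran from 5.61 ± 0.38 in restricted psoas through 4.996 ± 0.86 in psoas and 4.91 ± 0.89 in diaphragm on the high level to 4.42 ± 0.40 in restricted diaphragm. GADD45A was highest in restricted diaphragm (7.48 ± 0.44), followed by diaphragm on the high level (7.31 ± 0.46), psoas on the high level (6.60 ± 0.93) and restricted psoas (6.21 ± 0.52). GADD45B on its first probe set was highest in restricted psoas (5.50 ± 0.48), followed by psoas on the high level (5.40 ± 0.26), diaphragm on the high level (5.10 ± 0.15) and restricted diaphragm (4.94 ± 0.21). Neighbouring conditions overlapped in range for every gene.

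Sex was not used to choose the genes and was tested. GADD45A was the gene whose sexes stood furthest apart relative to error: the means of a female's 2 arrays lay between 6.39 and 6.77 and those of a male's between 6.84 and 7.55, without overlap. How many of all tested probe sets had sexes without overlap was not counted. The averages were 6.57 ± 0.18 in females and 7.23 ± 0.34 in males (SD, n = 4 each). The difference of -0.67 ± 0.18 (SE) had an unadjusted p of 0.00558 and did not pass adjustment over all probe sets (limma adjusted p = 0.307). In that comparison 21 probe sets, or 0.183%, were called. ASNS (0.24 ± 0.60, adjusted p = 0.943), CTH (0.41 ± 0.39, adjusted p = 0.820, and 0.026 without animal 1) and GADD45B (0.09 ± 0.18 with adjusted p = 0.925, and -0.28 ± 0.24 with adjusted p = 0.803 on the second probe set) did not pass either. With the animal as a block the sex comparison called 39 probe sets, and again none of the 5 passed.

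The ASNS muscle difference was smaller in each female than in every male, and how many other probe sets share this was not counted. Psoas exceeded diaphragm by 1.08, 1.42, 1.83 and 1.29 in females 5 to 8 and by 2.09, 2.03, 2.38 and 1.86 in males 1 to 4, a difference between the sexes of -0.69 ± 0.20. The unadjusted p was 0.00710, and the adjusted p was 0.392 (limma on the 8 animal differences, with feeding level as covariate). For this interaction limma called 0% of probe sets, with 1161 at an unadjusted p under 0.05. The same term was -0.74 ± 0.44 for GADD45A (adjusted p = 0.604), 0.08 ± 0.19 for CTH (adjusted p = 0.921), and 0.20 ± 0.19 and -0.10 ± 0.38 for the GADD45B probe sets (adjusted p = 0.767 and 0.953).

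In ASNS, animals 3, 4 and 7 were the lowest 3 in both psoas and diaphragm, and animals 2 and 5 were among the highest 3 in both. Over the 8 animals the psoas and diaphragm values correlated at r = 0.910 (two-sided exact permutation p = 0.00295) and Spearman rho = 0.857 (exact permutation p = 0.0107). The correlation was not among the planned comparisons and uses values of genes chosen from these arrays, so its p is a description. Adjusted over all 11467 probe sets, for each of which the correlation was computed, the p was 0.151, and 0% of probe sets passed with 1796 at an unadjusted p under 0.05. The median r over tested probe sets was 0.352, and 1.63% of them had an r above that of ASNS. Leaving out animals 3 and 4, whose diaphragm values were farthest from the median, gave r = 0.866. The animals with higher and with lower actin 3' minus 5' differences, 4 each, are too few for an r of their own.

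The same correlation was computed for the other genes, and none passed adjustment. GADD45B gave r = 0.622 on its first probe set (rho = 0.619, exact permutation p = 0.0852 for r and 0.115 for rho, adjusted p for r = 0.395) and CTH r = 0.577 (rho = 0.714, exact permutation p = 0.142 and 0.0576, adjusted p = 0.474). GADD45A gave r = 0.065 (rho = 0.095, exact permutation p = 0.875 and 0.840, adjusted p = 0.956), which became 0.742 without animal 4. The second GADD45B probe set gave r = 0.436 (rho = 0.476, exact permutation p = 0.281 and 0.243, adjusted p = 0.611). Without the 2 animals farthest from the diaphragm median these became 0.683 for GADD45B, 0.785 for CTH, 0.656 for GADD45A and 0.837 for the second GADD45B probe set.

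**Figure D3:**
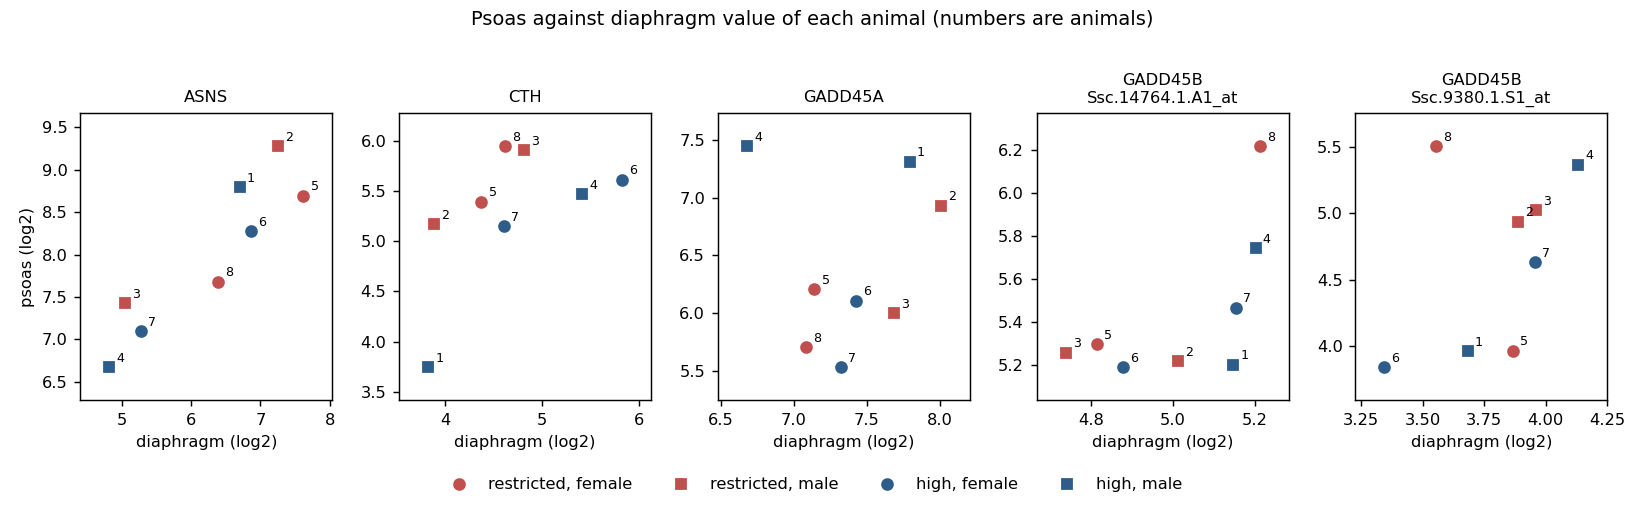
Psoas against diaphragm log2 value of each animal, 1 panel per probe set, with points numbered by animal, coloured by feeding level and marked by sex. The ASNS points lie along a line (r = 0.910), and in the GADD45A panel animal 4 lies apart at the upper left (r = 0.065 with it).

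Among themselves the 4 genes did not move as 1 group. Over the 16 arrays ASNS correlated at 0.033 with CTH, -0.307 with GADD45A and 0.205 with GADD45B. After each muscle's mean was subtracted these were -0.410, 0.265 and -0.388. GADD45A correlated at -0.658 with CTH and -0.556 with GADD45B, and at -0.544 and -0.246 after the muscle means were subtracted. CTH and GADD45B correlated at 0.428, and at 0.220 after subtraction. These are descriptions over 16 arrays, 2 from each animal.

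The genes whose log2 values most resembled each of the 4, by Pearson's r over the 16 arrays among 5825 probe sets with 1 symbol, were found next. For ASNS they were TRIM55, a ring finger protein of the sarcomere (r = 0.912), PPP3CA, the catalytic subunit of calcineurin (0.874), and PFDN5, a subunit of the chaperone prefoldin (0.847). The lowest r was with SQOR (-0.906), which oxidises sulfide in mitochondria. TRIM55 led again when each muscle's mean was subtracted, at 0.852.

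For CTH the leading genes were GRB10, an adaptor of insulin receptor signalling (0.838), ADSSL1, the muscle form of adenylosuccinate synthase (0.809), and HAGH, a glyoxalase (0.804), and GRB10 kept 0.801 after subtraction. For GADD45A they were RAB1A, a small GTPase of vesicle traffic (0.903), DNMT1, the maintenance DNA methyltransferase (0.882), and ACSL1, which activates long-chain fatty acids (0.868). RAB1A and DNMT1 had 0.884 and 0.843 after subtraction. For GADD45B they were CDK5RAP1, which modifies tRNAs in mitochondria (0.875), INTS11, a subunit of the Integrator complex (0.863), and RAP1GDS1, an exchange factor for small GTPases (0.837). CDK5RAP1 led after subtraction too, at 0.836, and INTS11 had 0.798. ADSSL1 and HAGH for CTH, ACSL1 for GADD45A and RAP1GDS1 for GADD45B were then no longer among the 3 highest.

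The neighbouring genes of the amino acid response were tested between the muscles, and the counts below stand beside 17.3% called higher and 12.2% called lower in psoas over all tested genes. Of 17 ATF4 and amino acid response genes on the array 11 were tested, 3 rose and 0 fell, with a median difference of 0.07 against 0.04 over all tested genes. ATF4 itself had log2 values between 13.87 and 14.39 in psoas and between 13.18 and 13.99 in diaphragm. Its ranges overlapped, but psoas was higher in all 8 animals, by 0.52 ± 0.10 (limma adjusted p = 0.00230), and a dimmer second probe set gave 0.19 (adjusted p = 0.141). VLDLR, the very low density lipoprotein receptor, rose by 0.53 ± 0.15 (adjusted p = 0.0174) and PSPH, the last enzyme of serine synthesis, by 0.78 ± 0.24 (adjusted p = 0.0281). The serine enzyme PSAT1 (-0.24) and the stress factors ATF3 (0.43), DDIT3 (-0.21) and CEBPB (-0.11) did not pass. With the animal as a block the count was 5, since SLC7A1 (-0.57), a carrier of cationic amino acids, and ALDH18A1 (-0.37), an enzyme of proline synthesis, were then called lower in psoas. ATF4 was called without each animal in turn, alone of the list without animal 3 and with the actin excess as a covariate. The PSPH call was lost without animal 3, 4 or 8 and without the filter, and the VLDLR call without animal 2 or 3. ALDH18A1 was called lower without animal 4, and SLC7A1 without animal 5 or 8.

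Upstream of ATF4, 4 of 9 tested genes of eIF2 and its regulators rose in psoas and 0 fell, with a list median of 0.14. EIF2B3 (0.78 ± 0.11, adjusted p = 1.6e-04), EIF2B1 (0.35 ± 0.08, adjusted p = 0.00435) and EIF2B4 (0.39 ± 0.13, adjusted p = 0.0327) are subunits of the factor that recharges eIF2, and EIF2S2 (0.45 ± 0.08, adjusted p = 0.00101) is the beta subunit of eIF2. Each was higher in psoas in 8 of 8 animals. The EIF2B4 call was lost without animal 2, 3 or 4, without the filter and with the actin covariate, and a second EIF2B1 probe set measured 0.25 (adjusted p = 0.312). EIF2AK2, a kinase of eIF2 that is switched on by double-stranded RNA, measured -0.52 ± 0.23 (adjusted p = 0.109), and was called lower in psoas with the animal as a block and without animal 6.

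Among 15 tested aminoacyl-tRNA synthetases of the cytosol, which load amino acids onto their tRNAs, 4 rose in psoas and 0 fell (list median 0.17). They were HARS (0.54 ± 0.18), FARSA (0.44 ± 0.10), MARS (0.42 ± 0.08) and RARS (0.26 ± 0.08), with adjusted p between 0.00232 and 0.0384 and all 8 animals higher in psoas. NARS, which loads asparagine, measured -0.01 ± 0.11 (adjusted p = 0.941). Without animal 1 or 2, and with the actin covariate, FARSA and MARS were the only synthetases called higher. HARS was also lost without animal 3 or 4 and without the filter. DARS (-0.38) was called lower with the animal as a block and without animal 8, and EPRS (-0.25) without animal 1 or 6.

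Near ASNS in metabolism, 3 of 8 tested genes of asparagine, aspartate and glutamine use rose in psoas and 0 fell (list median -0.004). ADSSL1 rose by 1.31 ± 0.26 (adjusted p = 0.00246), although its second probe set measured 0.11 (adjusted p = 0.765). ADSL, which follows it in the purine nucleotide cycle, rose by 0.40 ± 0.07 (adjusted p = 0.00123), and ASL, argininosuccinate lyase, by 0.60 ± 0.21 (adjusted p = 0.0428). The ASL call was lost without the filter, with the actin covariate and without any 1 animal other than 5 or 8, which left 2 calls. The glutamine synthetase GLUL measured 0.04 ± 0.12 (adjusted p = 0.833) on its brighter probe set and 0.44 (adjusted p = 0.0464) on the dimmer one. The aspartate aminotransferases GOT1 (-0.05) and GOT2 (-0.12) did not pass.

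Near CTH, of 9 tested genes of the methionine cycle, transsulfuration and cysteine use, 1 rose and 3 fell (list median -0.09). AHCY, which turns S-adenosylhomocysteine into homocysteine, rose by 0.60 ± 0.11 (adjusted p = 0.00123). GCLM, the modifier subunit of the enzyme that starts glutathione synthesis, was lower in psoas at -0.94 ± 0.14 (adjusted p = 2.6e-04), as were MAT2B, a regulatory subunit of methionine adenosyltransferase, at -0.56 ± 0.10 (adjusted p = 0.00108) and SQOR at -0.53 ± 0.15 (adjusted p = 0.0169). All 4 differences had the same sign in 8 of 8 animals. The catalytic partner GCLC measured -0.06 ± 0.21 (adjusted p = 0.844) and CDO1, which oxidises cysteine, -0.21 ± 0.14 (adjusted p = 0.279).

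Of 10 tested genes of the GADD45 family, their partners and other p53 targets, 1 rose and 0 fell (list median 0.06). PCNA, the sliding clamp of DNA replication, rose by 0.49 ± 0.10 (adjusted p = 0.00286). The third family member, GADD45G, lay between 6.56 and 9.06 in psoas and between 6.37 and 8.29 in diaphragm, and was higher in psoas in 8 of 8 animals without passing the test (0.61 ± 0.27, adjusted p = 0.110). It was called together with PCNA when the animal was a block, a count of 2. The cell cycle inhibitor CDKN1A measured 0.47 ± 0.25 (adjusted p = 0.171) and the GADD45 target kinase MAP3K4 0.03 ± 0.11 (adjusted p = 0.861).

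Of the 4 tested genes that respond to denervation and atrophy, 1 rose and 0 fell (list median 0.28). FBXO31, a ubiquitin ligase subunit, rose by 0.44 ± 0.10 (adjusted p = 0.00657). MYOD1 (0.31 ± 0.12, adjusted p = 0.0583) and the atrophy ligase FBXO32 (-0.52 ± 0.24, adjusted p = 0.116) did not pass, and both did with the animal as a block, MYOD1 higher and FBXO32 lower in psoas, a count of 3.

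Immediate early genes, which answer handling and stress within minutes, held 1 call among 13 tested (list median -0.01): BTG1, an inhibitor of proliferation, was lower in psoas (-0.39 ± 0.09, adjusted p = 0.00579). Their restricted minus high differences over animal means had a median of 0.39 against -0.05 over all tested genes, with 11 of 13 above 0 and 0 called. FOS measured 1.92 ± 0.87 (adjusted p = 0.408), EGR1 1.197 ± 0.53 (adjusted p = 0.402) and DUSP1 0.73 ± 0.31 (adjusted p = 0.383), all with limma. The list median for feeding was 0.67 within diaphragm, with 12 of 13 above 0, and 0.16 within psoas, with 11 of 13 above 0. For the muscle difference by feeding level it was -0.78, with 10 of 13 below 0 and 0 called. No gene of the 8 lists was called for feeding level or for sex.

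In animals 4, 6, 7 and 8 alone, whose diaphragm arrays had the lower actin 3' minus 5' differences, the muscle comparison called 405 probe sets against 3094 in all animals. Of the pathway genes called above only EIF2B3 and ADSSL1 were called there, from 8 arrays. With all animals and the actin excess as a covariate, ATF4, FARSA, MARS, EIF2B1, EIF2B3, EIF2S2, AHCY, GCLM, MAT2B, SQOR, ADSL, ADSSL1, PCNA, FBXO31 and BTG1 were still called. VLDLR, PSPH, HARS, RARS, EIF2B4 and ASL were not, and EGR1 was called higher in psoas only then and in animals 4, 6, 7 and 8 alone.

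**Figure D4:**
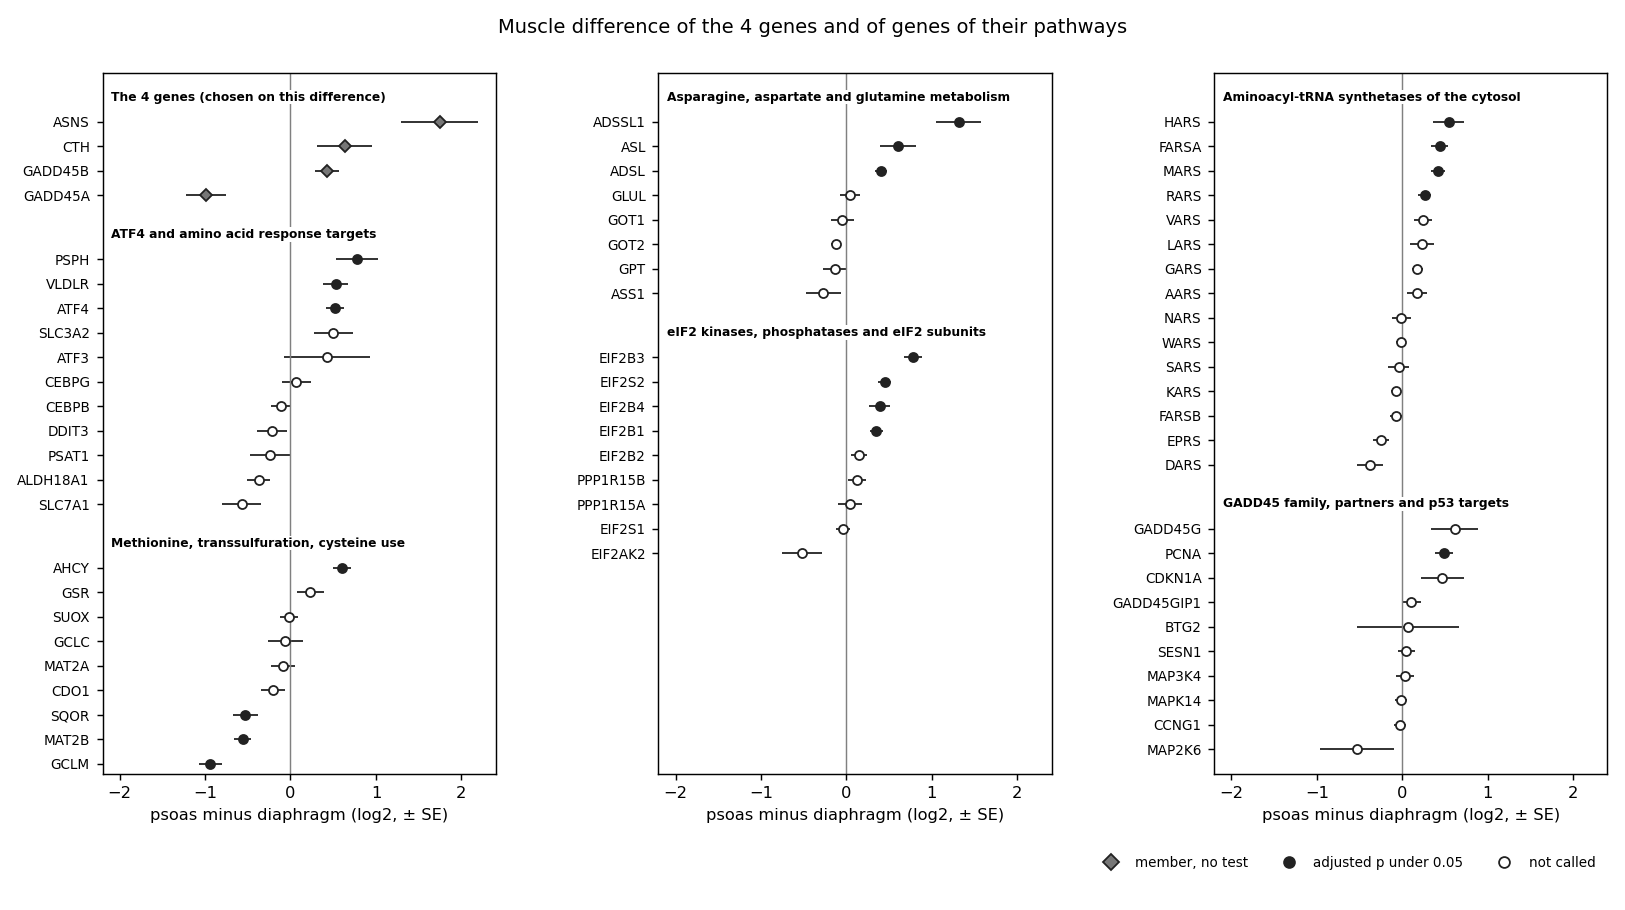
Psoas minus diaphragm (log2, point) with its SE (bar) for the 4 genes, drawn as diamonds without a test, and for the tested genes of 6 lists, filled where the limma adjusted p was under 0.05. The called genes lie right of 0 in 5 lists, and in the list of methionine, transsulfuration and cysteine genes AHCY lies right of 0 and SQOR, MAT2B and GCLM lie left of it.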

How the data were processed

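Total RNA of psoas major and diaphragm was isolated with a kit and labelled as biotinylated cRNA for Affymetrix porcine arrays, per the labels' protocols. The log2 values deposited by the authors were made with GCRMA, per the submitters' processing notes, which corrects background, equalises array distributions and compresses values near the floor; the sources used here name neither its version nor which arrays were summarised jointly. They were used without further scaling. The number of arrays limits the precision.

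Of 24123 probe sets, 10099 had 1 gene symbol in the platform annotation, 198 several and 13826 none. After 124 control probe sets were left out, those at or above log2 4 on at least 4 of 16 arrays were tested (11467 probe sets, 4571 genes). A list gene with several probe sets was read from the one brightest on average. limma 3.58.1 (lmFit, eBayes, R 4.3.3) made the fits, and p-values were adjusted by Benjamini-Hochberg over all tested probe sets. The fits, other than that of feeding within diaphragm, were also run on simulated data whose arrays were independent. Those data held no animal effect, so they could not check a muscle fit without a term for the animal. Muscle was fitted on 16 arrays with the covariates sex and feeding level. This fit had no term for the animal, which entered as a block among the alternatives only. Sex and feeding level were fitted on the means of 8 animals with the other as covariate. Interactions were fitted on the psoas minus diaphragm differences of the animals. Correlations between muscles, which were not among the planned comparisons, used exact permutation tests (scipy 1.17.1).

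The 4 genes and all lists were chosen with earlier results of these data known. The genes named were the 4, the called genes of each list and, beyond that rule, family members and enzymes next to the 4 that were chosen after their values were seen. Genes alike in pattern were the 3 highest by r. Arrays were paired by the animal numbers that the labels give, for the animal means, animal differences, correlations between muscles and the animal block. After the fitted effects were removed an animal's arrays correlated between 0.0724 and 0.257, positive in 8 of 8 animals. The animal as a block, other filters and scalings, no covariates, the actin 3' minus 5' difference as covariate, animals 4, 6, 7 and 8 alone and leaving out each animal were the alternatives. No 2 arrays held identical values.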

Additional observations from a re-analysis of the deposited data

Results flagged for a closer look

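Of 50 groups of arrays tested for a value far from the others, 5 held one, by Dixon's criterion, which chance alone meets in about 1 in 20 groups. Psoas of animal 1 had a CTH log2 value of 3.74, below the other 7 psoas arrays at 5.15 to 5.95. Diaphragm of female 6 had a CTH value of 5.82, above the other females at 4.37 to 4.61. The remaining 3 were on the first GADD45B probe set. Psoas of animal 8 measured 6.22 against 5.22 to 5.30 in the other restricted animals. Psoas of animal 4 measured 5.74 against 5.20 to 5.26 in the other males. Diaphragm of animal 6 measured 4.88 against 5.15 to 5.20 in the other animals on the high level.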

How the results depend on the processing

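The muscle differences of all 5 probe sets kept their sign under every alternative tried, between 1.60 and 2.01 for ASNS, -1.24 and -0.87 for GADD45A, 0.35 and 0.76 for CTH, 0.34 and 0.54 for GADD45B and 0.70 and 1.09 for its second probe set. The CTH dependence on feeding level lay between 0.98 and 1.31. Since the genes were chosen on muscle and feeding level in these same arrays, these ranges are a description and no independent support. No sex or muscle-by-sex test of the 5 passed under any alternative. With the replicate block the called genes were 5 for ATF4 targets, 2 for GADD45 partners and 3 for denervation genes, and 39 probe sets were called for sex; it also called DARS and EIF2AK2 lower in psoas, and moved no other count by over 1.5 times. Quantile normalization gave 2 denervation genes. The actin covariate gave 1 ATF4 target, 2 synthetases and 2 immediate early genes, and a CTH muscle-by-sex difference of -0.095 in place of 0.08. Animals 4, 6, 7 and 8 alone gave 405 probe sets for muscle, 0 genes for ATF4 targets, synthetases, methionine genes, GADD45 partners and denervation genes, 1 each for eIF2 and asparagine genes and 2 immediate early genes, with fewer arrays. Without the filter 1 probe set was called for feeding within diaphragm and 2 within psoas, and without covariates 2 within diaphragm.

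Leaving out 1 animal at a time gave 1 to 4 ATF4 targets (lowest without animal 3), 2 to 5 synthetases (lowest without animal 2), 1 to 2 denervation genes (2 without animal 1), 1 to 2 GADD45 partners (2 without animal 6), 13 to 23 probe sets for sex (13 without animal 2 or 3) and 2162 to 2906 for muscle. For feeding it gave 0 to 1 over animal means (1 without animal 3 or 6), 0 to 2 within diaphragm and 0 to 1 within psoas (both highest without animal 3). Uncalled differences changed sign. The sex difference ranged from -0.19 to 0.66 for ASNS (below 0 without animal 3, 4, 5 or 6), 0.026 to 0.69 for CTH and -0.091 to 0.196 for GADD45B (below 0 without animal 8). The muscle-by-sex difference ranged from -0.085 to 0.216 for CTH and -0.48 to 0.256 for the second GADD45B probe set. The GADD45A correlation of psoas with diaphragm ranged from -0.155 to 0.742, and was -0.132 without animal 2 and -0.054 without animal 8; alternatives for the correlations were chosen after seeing the data. The feeding difference over animal means ranged from 0.23 to 1.04 for ASNS and -0.33 to 0.33 for CTH. The causes were not tested.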
